A study of Mus musculus with 9 samples.

Results

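Neuropeptide precursor genes other than those of CGRP, the calcitonin gene-related peptide, were followed in mRNA sequencing of lumbar dorsal root ganglia, which hold the cell bodies of the sensory neurons that serve the hindquarters. The 10 genes Tac1, Adcyap1, Cartpt, Gal, Nmb, Vip, Npy, Cck, Penk and Grp were chosen by symbol. All 10 were found among the 55536 Ensembl identifiers of each deposited table, and 8 of them had enough counts to be tested. The 5 icKO libraries came from adult C57Bl6 mice labelled with an inducible conditional knock-out of Prdm12. The 4 control libraries came from adult C57Bl6 mice labelled wild type, and the design text places the ganglia 1 month after tamoxifen, the drug that triggers such deletions. The labels give neither the Cre driver nor the deleted exon, and do not say whether each library is 1 animal or a pool, so the p-values reflect library-to-library spread, part of which may be technical. Any transgene or allele other than Prdm12 that sets the icKO mice apart from wild type mice cannot be told apart from the Prdm12 deletion.

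Neuropeptides are made as longer precursors, cut by convertases, trimmed and often amidated in dense-core vesicles, and released to act on G protein-coupled receptors. In sensory ganglia, substance P from Tac1 and PACAP from Adcyap1 are known products of peptidergic nociceptors, the small neurons that sense painful stimuli. Gal, Npy, Vip and Cck are known in rodents as genes that sensory neurons switch on after injury to their axons. Prdm12 encodes a zinc finger transcriptional regulator that nociceptors need in order to form.

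The libraries held 19607740 to 29481589 counts. Levels are given as CPM, each gene's count relative to the size of its library. The limit taken for a gene with 0 counts is 3 counts, or 0.101 to 0.155 CPM, and covers counting error only. Prdm12 itself had 22.3 to 26.2 CPM in icKO libraries and 116 to 163 CPM in control libraries, which gave a fitted log2 difference of -2.48 (SE 0.09, edgeR quasi-likelihood adjusted p = 2.51e-08). The sensory neuron genes Isl1, Pou4f1, Avil, Prph, Scn10a, Tubb3, Rbfox3 and Uchl1 were all detected, with summed levels of 8693 to 10555 CPM in icKO and 9365 to 11028 CPM in control, and none of the 8 was called. Summed genes of Y-linked origin reached 98.1 to 165 CPM in icKO 1, icKO 2, control 1 and control 3, and were at 0.104 to 3.58 CPM in the other 5 libraries. All 12 genes of a nerve injury list had their highest icKO value in icKO 2 and their highest control value in control 1, against 9.4% of the 17258 tested genes. Fold changes and levels per length of Gal and Npy, and the fold changes of Nts and Penk, are given with and without those 2 libraries.

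Promoter sequences are shown for Tac1 and Cartpt, the members with the smallest p-values, and for Gal and Npy, which varied most between libraries of 1 group among the members above 1 CPM on average. RefSeq windows from 250 bases before to 50 bases after the start site were found for 8 of the 10 genes on build GRCm38.p6, the build also called mm10. Capitals mark the half-site TGACG of the cyclic AMP response element, on either strand, including its full form TGACGTCA. The windows are chr6:7554811-7555110 on the plus strand for Tac1, chr13:99900634-99900933 on the minus strand for Cartpt, chr19:3414495-3414794 on the minus strand for Gal, and chr6:49822460-49822759 on the plus strand for Npy.
Tac1: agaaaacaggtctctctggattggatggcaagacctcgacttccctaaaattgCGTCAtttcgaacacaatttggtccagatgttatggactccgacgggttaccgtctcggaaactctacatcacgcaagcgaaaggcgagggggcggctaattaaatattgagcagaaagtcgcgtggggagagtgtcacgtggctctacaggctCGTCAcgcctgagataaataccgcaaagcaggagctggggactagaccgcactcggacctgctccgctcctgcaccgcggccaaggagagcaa
Cartpt: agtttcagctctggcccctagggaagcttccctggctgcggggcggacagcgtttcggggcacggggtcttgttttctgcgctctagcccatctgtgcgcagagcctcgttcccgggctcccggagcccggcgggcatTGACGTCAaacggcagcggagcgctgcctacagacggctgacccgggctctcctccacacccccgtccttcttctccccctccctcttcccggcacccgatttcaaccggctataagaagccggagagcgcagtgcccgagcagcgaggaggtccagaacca
Gal: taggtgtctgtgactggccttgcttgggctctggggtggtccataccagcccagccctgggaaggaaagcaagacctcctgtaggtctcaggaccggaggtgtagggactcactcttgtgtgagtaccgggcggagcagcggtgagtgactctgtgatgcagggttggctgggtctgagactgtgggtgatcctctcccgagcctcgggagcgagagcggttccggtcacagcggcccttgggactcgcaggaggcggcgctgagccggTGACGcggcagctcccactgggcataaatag
Npy: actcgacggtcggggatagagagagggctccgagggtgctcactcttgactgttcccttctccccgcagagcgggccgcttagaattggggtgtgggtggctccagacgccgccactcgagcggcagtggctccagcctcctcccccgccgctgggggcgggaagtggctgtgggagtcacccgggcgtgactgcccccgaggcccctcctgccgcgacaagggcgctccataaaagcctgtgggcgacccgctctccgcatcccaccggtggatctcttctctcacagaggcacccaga
Cartpt held the full TGACGTCA, starting 112 bases before its RefSeq start site, a motif found in 1.79% of 32851 RefSeq promoter windows of the same length. The whole Cartpt window lies inside the gene as annotated by GENCODE, which runs to 99901091 on the minus strand. The Tac1 window spans the GENCODE start at 7554879. Distances are given from the RefSeq starts. Tac1 held 2 half-sites, both read on the opposite strand, whose first bases lay 197 and 43 bases before the start. The single Gal half-site began 19 bases after the start, and the Npy window held none. Half-sites also occurred in the windows of Adcyap1, Vip and Cck, and TGACG in either direction was present in 20.8% of all windows. The AP-1 motif TGANTCA, searched on both strands and present in 7.81% of windows, matched no member's window. These matches describe the letters of the windows and say nothing of binding.

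None of the 8 tested members was called at an adjusted p under 0.05, against 0.852% of all tested genes, 0.475% higher and 0.377% lower in icKO. At an unadjusted p under 0.05, 2 members were higher and 0 were lower in icKO, where 11.1% of all tested genes lay under that p in either direction. DESeq2 called 0 members and 2.41% of the genes it tested, while edgeR without a filter on low counts called both Tac1 and Cartpt. That setting called 393 genes in place of 147, and gave Cartpt an SE of 0.127 in place of 0.180. The median log2 fold change of the 8 was -0.03, beside -0.00076 over all tested genes. Of the 8, 4 had a fitted value above 0 and 4 below, and for none did the groups stand wholly apart, as they did with icKO higher in 2.16% and with icKO lower in 2.34% of all tested genes. In bulk ganglia, a change in the number of neurons that make a peptide and a change in transcript per neuron cannot be told apart.

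Tac1, the precursor of substance P and neurokinin A (ENSMUSG00000061762, chr6:7554879-7565834), had 615, 634, 454, 616 and 447 CPM in icKO 1 to 5, against 494, 385, 457 and 381 CPM in control 1 to 4. Of the 5 icKO libraries, 3 lay above every control library, while icKO 3 and icKO 5 lay inside the control range. The means were 553 ± 93.9 CPM in icKO (SD, n = 5) and 429 ± 55.8 CPM in control (SD, n = 4), a ratio of 1.29. The log2 fold change was 0.37 (SE 0.12, 95% interval 0.10 to 0.63), with an unadjusted p of 0.0109, which edgeR's Benjamini-Hochberg adjustment raised to 0.25. DESeq2 gave an adjusted p of 0.0857, and edgeR without a count filter gave 0.0476. Within libraries of high Y-linked counts the difference in mean log2 CPM was 0.39 (2 icKO and 2 control libraries), and within those of low counts it was also 0.39 (3 icKO and 2 control libraries).

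Cartpt encodes the precursor of the CART peptides, named for cocaine- and amphetamine-regulated transcript (ENSMUSG00000021647, chr13:99898489-99901091). It had 37.1, 37.3, 29.6, 44.2 and 27.8 CPM in icKO 1 to 5, against 27.1, 14.7, 22.4 and 28.9 CPM in control 1 to 4. Of the icKO libraries, 4 exceeded every control library and icKO 5 lay just under control 4. The means were 35.2 ± 6.63 CPM in icKO (SD, n = 5) and 23.3 ± 6.33 CPM in control (SD, n = 4), a ratio of 1.51, the largest of the 8 tested members. The log2 fold change of 0.60 (SE 0.18, 95% interval 0.21 to 0.99) had an unadjusted p of 0.00567 and, in the same edgeR test, an adjusted p of 0.183. DESeq2 gave an adjusted p of 0.191 and edgeR without a count filter 0.00757. Within libraries of high and of low Y-linked counts the differences in mean log2 CPM were 0.59 and 0.68.

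Adcyap1, the PACAP precursor gene (ENSMUSG00000024256, chr17:93199017-93206537), had 138, 144, 133, 146 and 122 CPM in icKO 1 to 5, against 149, 111, 132 and 133 CPM in control 1 to 4. The groups overlapped along most of their range, with control 1 the highest of all 9 libraries and control 2 the lowest. The log2 fold change was 0.06 (SE 0.08, 95% interval -0.12 to 0.24, edgeR quasi-likelihood adjusted p = 0.863), an interval that spans 0.921-fold to 1.18-fold. Nmb, which encodes neuromedin B, a bombesin-like peptide that acts on its own receptor Nmbr (ENSMUSG00000025723, chr7:80902227-80905076), was also spread evenly over the groups. It had 148, 152, 116, 140 and 128 CPM in icKO 1 to 5, against 140, 153, 124 and 127 CPM in control 1 to 4. Its log2 fold change was 0.01 (SE 0.09, 95% interval -0.18 to 0.20, edgeR quasi-likelihood adjusted p = 0.98). Nmb shares 163 of its 793 exon bases with Sec11a on the same strand, so its counts are uncertain. The difference in mean log2 CPM of Nmb was 0.19 within libraries of high and -0.12 within libraries of low Y-linked counts. Opposite signs were also found for Npy, at 0.37 within high and -0.34 within low libraries, and for Cck, at 0.63 and -0.58. For Tac1, Cartpt, Adcyap1, Gal and Nmb alike, icKO 3 and icKO 5 were the 2 lowest icKO libraries, an arrangement noticed after the values were seen and present in 14.6% of all tested genes. Npy, Cck and Penk did not have it. Outside the members, the nociceptor genes Calcb and Gfra3 and the sensory neuron gene Isl1 also had it, while Pou4f1, Avil and Prph did not.

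**Figure D1:**
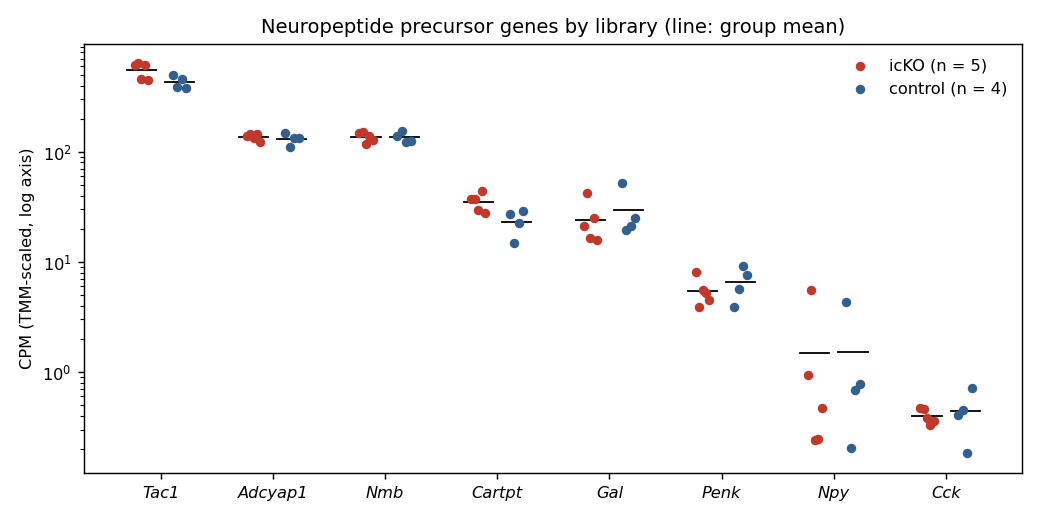
CPM of the 8 tested neuropeptide genes on a log axis, with 1 point per library, icKO in red (n = 5) and control in blue (n = 4), and black lines at the group means. Cartpt averaged 35.2 CPM in icKO ganglia and 23.3 CPM in control ganglia, and for Gal and Npy 1 library of each group stands above the rest.

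Gal and Npy varied more between libraries of 1 group than between the groups. Gal, the galanin precursor gene (ENSMUSG00000024907, chr19:3409915-3414544), had 21.3, 42.0, 16.5, 25.0 and 15.8 CPM in icKO 1 to 5, against 52.4, 19.4, 21.1 and 24.9 CPM in control 1 to 4. The highest icKO library was icKO 2, at 2.22 times the median of the other icKO libraries, and the highest control library was control 1, at 2.49 times the median of the others. The log2 fold change was -0.29 (SE 0.32, 95% interval -1.0 to 0.41, edgeR quasi-likelihood adjusted p = 0.818). Without icKO 2 it was -0.59, without control 1 it was 0.15, and without both it was -0.14 (SE 0.15).

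Npy, the neuropeptide Y gene (ENSMUSG00000029819, chr6:49822710-49829507), had 28, 142, 7, 6 and 12 counts in icKO 1 to 5, or 0.942, 5.50, 0.244, 0.247 and 0.474 CPM. In control 1 to 4 it had 119, 5, 19 and 15 counts, or 4.36, 0.204, 0.692 and 0.773 CPM. All libraries other than icKO 2 and control 1 were under 1 CPM. The fitted log2 difference was -0.07 with an SE of 0.92 and a 95% interval of -2.06 to 1.93 (edgeR quasi-likelihood adjusted p = 0.992). Without icKO 2 it was -1.66, without control 1 it was 1.41, and without both it was -0.18 (SE 0.54).

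The same 2 libraries were the highest of their groups for Atf3, a transcription factor gene induced by axon injury, at 30.9 CPM in icKO 2 against 7.15 to 14.2 CPM in the other icKO libraries, and 43.8 CPM in control 1 against 6.12 to 10.8 CPM in the other control libraries. Sprr1a, a gene known for its induction in regenerating sensory neurons, was highest in icKO 2 with 35.5 CPM and control 1 with 25.1 CPM, against 0 to 4.04 CPM in the other 7 libraries. Among neuropeptide genes outside the 10, Nts for neurotensin and Crh for corticotropin-releasing hormone had the same arrangement, with 78.0 and 41.6 CPM of Nts and 1.28 and 1.14 CPM of Crh in icKO 2 and control 1. So did Cckbr, the gene of a receptor for cholecystokinin and gastrin, with 2.05 and 2.42 CPM there and 0.0395 to 0.606 CPM elsewhere. Of the genes examined, 3 of 8 members, 2 of 9 other neuropeptide genes and 3 of 13 receptor genes were highest in both libraries. So were 3 of 8 sensory neuron genes. The somatostatin gene Sst was at 0.609 and 0.719 times the median of the other libraries in icKO 2 and control 1. The natriuretic peptide gene Nppb was at 0.723 and 0.77 times. Tac1 was the other tested member highest in both libraries, by 1.19 times the median of the other icKO libraries and 1.28 times that of the other control libraries. Cck and Vip, named above with Gal and Npy as injury-induced genes, did not share the arrangement. For Cck, icKO 2 had 12 counts against 14 in icKO 1, and control 1 had 11 against 14 in control 4. For Vip, icKO 2 had 3 counts against 4 in icKO 4, while control 1 was highest of its group with 2. Both genes were at or near the limit of detection. The libraries icKO 2 and control 1 were also among the 4 with high Y-linked counts. Their summed fibroblast and meningeal genes were the lowest of each group. These were 757 CPM in icKO 2 against 1095 to 1775 CPM, and 602 CPM in control 1 against 1210 to 1288 CPM. Their summed sensory neuron genes were the highest of each group, at 10555 and 11028 CPM. Summed endothelial genes were, like the fibroblast and meningeal genes, lowest of each group in icKO 2 and control 1. They were at 34.9 CPM in icKO 2 against 36.4 to 51.4 CPM, and at 33.0 CPM in control 1 against 41.6 to 49.5 CPM. Schwann cell genes, and macrophage and lymphocyte genes, were lowest of the group in control 1 but not in icKO 2. For satellite glia genes neither library was lowest. The part of injury genes, of Y-linked content or of cell content in the levels of Gal and Npy was not tested.

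**Figure D2:**
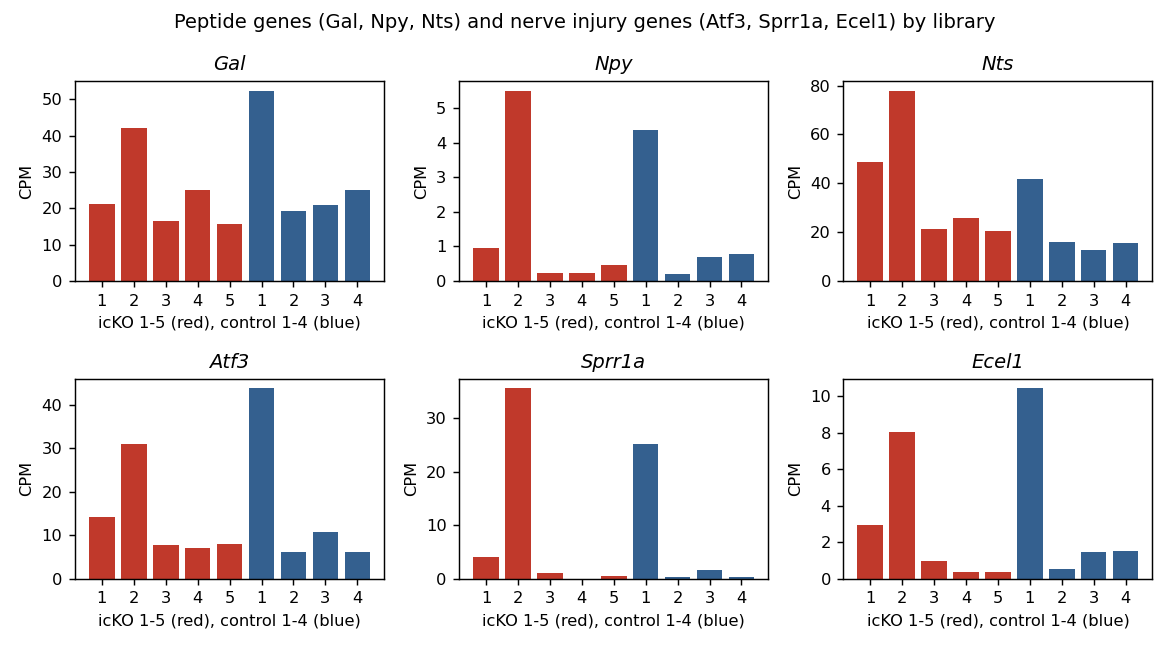
CPM per library, on linear axes from 0, for the peptide genes Gal, Npy and Nts and for the nerve injury genes Atf3, Sprr1a and Ecel1, with icKO 1 to 5 in red and control 1 to 4 in blue. In each of the 6 panels the tallest red bar is icKO 2 and the tallest blue bar is control 1.

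Penk, the precursor gene of the enkephalins, which act on delta and mu opioid receptors (ENSMUSG00000045573, chr4:4133531-4138819), was low. It had 8.07, 3.91, 5.57, 5.22 and 4.50 CPM in icKO 1 to 5, against 3.89, 5.72, 9.22 and 7.57 CPM in control 1 to 4. The groups overlapped, and the log2 fold change was -0.27 (SE 0.25, 95% interval -0.80 to 0.27, edgeR quasi-likelihood adjusted p = 0.776). Leaving out 1 library moved it between -0.46, without control 1, and -0.04, without control 3. It was -0.45 without icKO 1, -0.17 without icKO 2, and -0.36 (SE 0.21) without both icKO 2 and control 1. Penk was the lowest of each group in icKO 2 and control 1, where Gal and Npy were highest. An uncharacterised gene on the opposite strand, A830012C17Rik, shares 233 of the 1634 exon bases of Penk and had 0 counts in every library.

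Cck, Vip and Grp were at or near the limit of detection. Cck, for cholecystokinin (ENSMUSG00000032532, chr9:121489824-121495694), had 14, 12, 11, 8 and 9 counts in icKO 1 to 5, against 11, 11, 5 and 14 counts in control 1 to 4, or 0.329 to 0.471 CPM in icKO and 0.182 to 0.721 CPM in control. Its log2 fold change was -0.07 with a 95% interval of -0.81 to 0.67 (SE 0.34, edgeR quasi-likelihood adjusted p = 0.973). Vip, for vasoactive intestinal peptide (ENSMUSG00000019772, chr10:5639218-5647617), had 2, 3, 0, 4 and 2 counts in icKO 1 to 5, against 2, 0, 0 and 1 counts in control 1 to 4. Grp, for gastrin-releasing peptide, known in mouse spinal cord as a transmitter of itch circuits (ENSMUSG00000024517), had 1, 3, 2, 0 and 0 counts in icKO 1 to 5, against 6, 2, 0 and 1 counts in control 1 to 4. Neither Vip nor Grp passed the count filter, and a difference between the groups was not detectable at this depth. The 3 libraries with 0 counts of Vip allow up to 0.104 to 0.122 CPM, and the 3 with 0 counts of Grp up to 0.109 to 0.123 CPM.

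**Figure D3:**
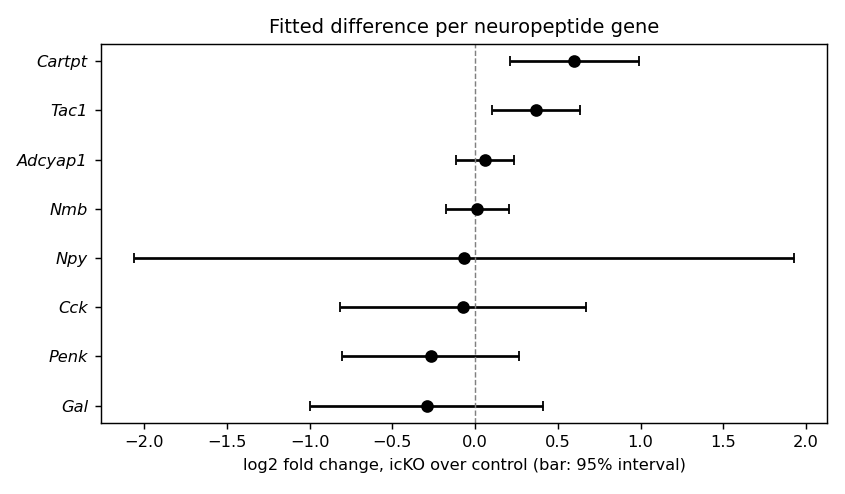
Fitted log2 fold change of icKO over control for the 8 tested neuropeptide genes, with bars for the 95% interval and a dashed line at 0. The intervals of Cartpt (0.21 to 0.99) and Tac1 (0.10 to 0.63) lie above 0 before adjustment over all genes, and that of Npy runs from -2.06 to 1.93.

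Levels of different genes were compared per length, as TPM, which divides each count by the gene's exon length and scales each library to the same sum. In icKO libraries the order was Nmb at 625 ± 71.5 TPM, Tac1 at 588 ± 103 TPM, Adcyap1 at 131 ± 9.78 TPM, Gal at 111 ± 50.0 TPM and Cartpt at 99.5 ± 18.7 TPM (SD, n = 5), followed by Penk at 12.1 ± 3.61 TPM, Npy at 9.54 ± 14.7 TPM and Cck at 1.11 ± 0.192 TPM. In control libraries it was Nmb at 623 ± 42.9 TPM, Tac1 at 461 ± 73.0 TPM, Gal at 137 ± 72.9 TPM, Adcyap1 at 127 ± 18.3 TPM and Cartpt at 66.7 ± 18.9 TPM (SD, n = 4). Penk followed at 14.8 ± 5.59 TPM, Npy at 9.80 ± 12.5 TPM and Cck at 1.22 ± 0.602 TPM, with Grp and Vip under 1 TPM in both groups. Of the neighbours in the icKO order, Nmb and Tac1, Adcyap1 and Gal, Gal and Cartpt, Penk and Npy, and Grp and Vip overlapped in range. Of those in the control order, Gal and Adcyap1, Penk and Npy, Npy and Cck, Cck and Grp, and Grp and Vip overlapped in range. The places of Gal rested on 1 library in each group, since Gal lay above Cartpt in 1 of 5 icKO libraries and above Adcyap1 in 1 of 4 control libraries. Without icKO 2, Gal averaged 89.8 ± 19.7 TPM in icKO, under Cartpt at 97.7 ± 21 TPM, and without control 1 it averaged 101 ± 14.8 TPM in control, under Adcyap1 at 121 ± 16.9 TPM. Npy averaged 3.04 ± 2.13 TPM in icKO without icKO 2 and 3.62 ± 2.06 TPM in control without control 1. The order of Nmb and Tac1 depended on the length used. With the longest annotated transcript in place of all exons, Tac1 stood at 789 TPM in icKO and 619 TPM in control, above Nmb at 548 TPM in icKO and 546 TPM in control. Of the summed TPM of the 10 genes, Nmb made up 39.6% in icKO and 43.2% in control, and Tac1 made up 37.3% in icKO and 32.0% in control.

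**Figure D4:**
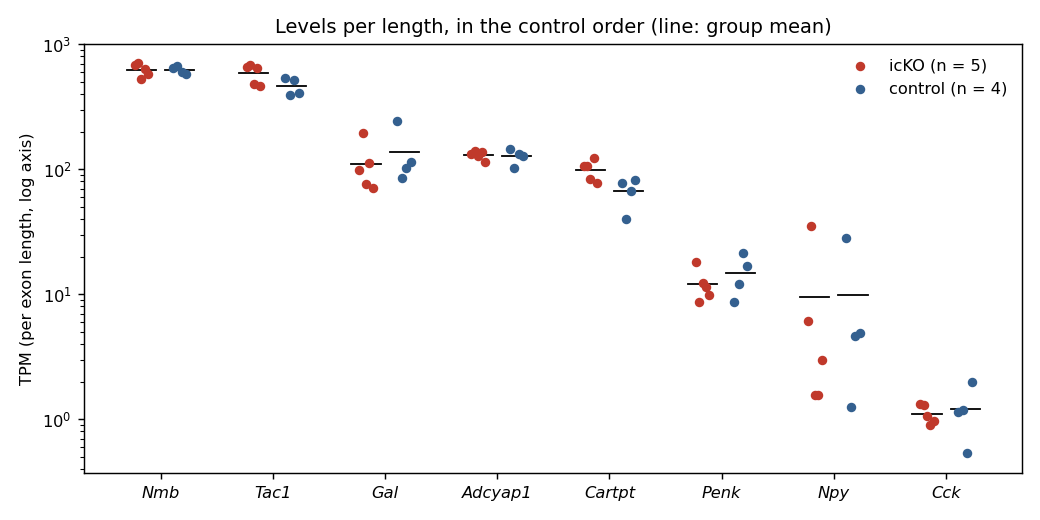
TPM per library on a log axis for the 8 tested genes, in the order of their control means, with icKO in red (n = 5), control in blue (n = 4) and lines at the group means. Nmb and Tac1 lie highest, at 625 and 588 TPM on average in icKO and 623 and 461 TPM in control.

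The genes whose log2 CPM followed a member most closely, after the group means were removed, were Lactb2 for Tac1 (Pearson r of 0.97), Helz2 for Adcyap1 (0.96), Epm2aip1 for Cartpt (0.99) and Ncl for Nmb (0.96). The second for these 4 members were Msrb3 (0.95), Slc22a15 (0.95), Acsl4 (0.98) and Slitrk4 (0.94), and the second for Gal was Fam172a (0.97). These are descriptions over 9 libraries, taken from the highest of 9911 protein-coding genes at 10 CPM or more, and the libraries share depth and dissection. None of the genes named here as similar was called between icKO and control.

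Genes of the machinery that makes, packs and reads these peptides were taken from 4 lists. Among 12 enzymes and helpers of peptide processing, all tested, 1 rose, 0 fell and 11 were not called. Over all tested genes, 0.475% were called higher and 0.377% lower in icKO. The gene that rose was Pam, peptidylglycine alpha-amidating monooxygenase, which adds the terminal amide that substance P, PACAP, galanin in rodents, neuropeptide Y and cholecystokinin carry. Pam had 269, 259, 253, 267 and 256 CPM in icKO 1 to 5, against 212, 172, 206 and 205 CPM in control 1 to 4. Every icKO library lay above every control library, as in 2.16% of all tested genes. The log2 fold change was 0.39 (SE 0.07, 95% interval 0.25 to 0.53, edgeR quasi-likelihood adjusted p = 0.0138), and without icKO 1 the adjusted p was 0.0531. Scg5, the 7B2 chaperone of convertase Pcsk2, was at 105 ± 8.34 CPM in icKO ganglia and 90.0 ± 10 CPM in control ganglia and was not called (adjusted p = 0.291). Cpe, the carboxypeptidase that trims the cut ends, was at 897 ± 28.9 CPM in icKO ganglia and 831 ± 9.57 CPM in control ganglia (adjusted p = 0.398). Its groups also did not overlap, with icKO higher. Ctsl, a cathepsin protease gene, averaged 1083 CPM in icKO ganglia and 977 ± 94.2 CPM in control ganglia (log2 difference 0.15, SE 0.07, adjusted p = 0.506). The list median was -0.0021.

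Of 21 receptor genes for the 10 peptides, 12 were tested, 1 rose, 0 fell and 11 were not called, beside the same 0.475% higher and 0.377% lower over all tested genes. Npy2r, an inhibitory receptor for neuropeptide Y, had 54.2, 48.7, 53.4, 55.9 and 54.1 CPM in icKO 1 to 5, against 46.1, 38.7, 35.8 and 39.1 CPM in control 1 to 4. The groups did not overlap, as with icKO higher in 2.16% of all tested genes. The log2 fold change was 0.42 (SE 0.07, 95% interval 0.26 to 0.57, edgeR quasi-likelihood adjusted p = 0.0178). The adjusted p was 0.0578 without icKO 1 and 0.0516 without control 3. Adcyap1r1, the PACAP receptor gene, was at 4.64 ± 0.342 CPM in icKO ganglia and 6.23 ± 1.69 CPM in control ganglia (adjusted p = 0.333). Oprd1, the delta opioid receptor gene, was at 14.5 ± 2.90 CPM in icKO ganglia and 18.4 ± 1.88 CPM in control ganglia (adjusted p = 0.347), and the cholecystokinin receptor gene Cckar at 48.5 ± 3.57 CPM in icKO ganglia and 41.1 ± 6.41 CPM in control ganglia (adjusted p = 0.37). The list median was -0.16. Tacr1, the substance P receptor, Nmbr, Vipr1 and Cckbr were among the 9 receptor genes too low to test.

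Of 14 genes of dense-core vesicles, 0 were called by edgeR. An unadjusted p under 0.05 was found for 1 higher and 3 lower genes, and for 11.1% of all tested genes in either direction. DESeq2 called 2, Syt9 and Scg2, beside 2.41% of all genes it tested. Syt9, a calcium sensor of vesicle release, was at 205 ± 5.52 CPM in icKO ganglia and 168 ± 16.5 CPM in control ganglia, at a log2 fold change of 0.29 (SE 0.07), and its adjusted p was 0.0724 in edgeR and 0.00352 in DESeq2. The granins Scg2, at 414 ± 14.2 CPM in icKO ganglia and 468 ± 27.7 CPM in control ganglia, and Chga, at 169 ± 18.1 CPM in icKO ganglia and 197 ± 7.64 CPM in control ganglia, had adjusted p-values of 0.205 and 0.263 by edgeR. Scg2 had an adjusted p of 0.0458 by DESeq2. The groups did not overlap for Syt9, with icKO higher, or for Scg2 and Chga, with icKO lower. Over all tested genes 2.16% stood apart with icKO higher and 2.34% with icKO lower. Scg3, also a granin, was at 872 ± 34.9 CPM in icKO ganglia and 987 ± 96.3 CPM in control ganglia (adjusted p = 0.322 by edgeR). The list median was -0.11, with 10 of 14 values below 0.

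Of 20 other neuropeptide genes, 8 were tested and 0 were called by edgeR's quasi-likelihood test or by DESeq2. An unadjusted p under 0.05 in edgeR was found for 2 higher genes and 1 lower gene, and for 11.1% of all tested genes. The somatostatin gene Sst was at 12.7 ± 3.16 CPM in icKO ganglia and 8.09 ± 2.81 CPM in control ganglia (log2 fold change 0.66, SE 0.23, adjusted p = 0.273). Nppb, a natriuretic peptide gene known in mouse as a marker of itch neurons, was at 28.2 ± 5.53 CPM in icKO ganglia and 20.1 ± 5.09 CPM in control ganglia (0.49, SE 0.18, adjusted p = 0.285). Nts was at 38.9 ± 24.7 CPM in icKO ganglia and 21.4 ± 13.5 CPM in control ganglia (0.85, SE 0.44, adjusted p = 0.52). Its log2 fold change was 0.44 without icKO 2, 1.40 without control 1 and 0.99 (SE 0.27, adjusted p = 0.18) without both. Nms, for neuromedin S, had 4 to 10 counts in icKO libraries and 6 to 14 in control libraries (adjusted p = 0.379). The list median was 0.43, and as 12 of the 20 genes were too low to test it does not describe the whole list.

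**Figure D5:**
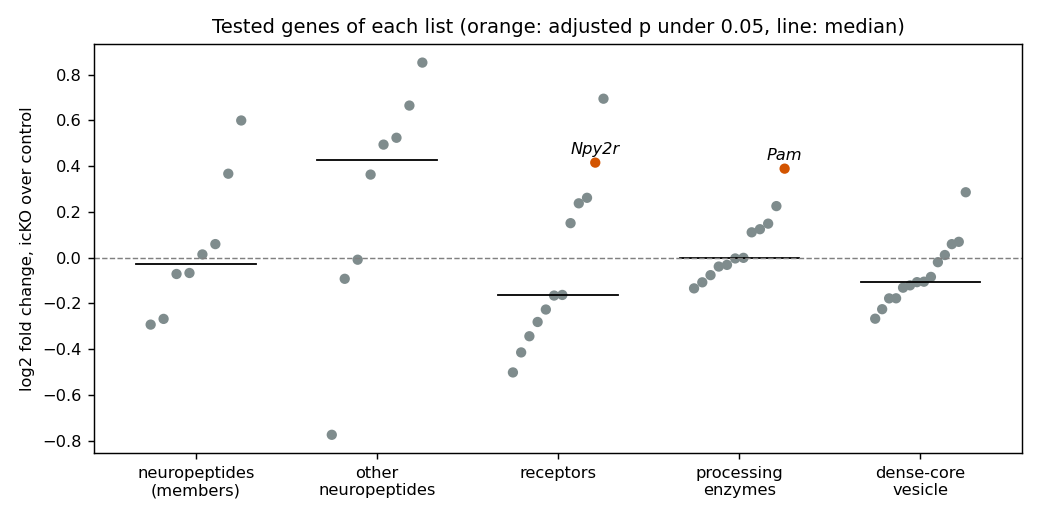
Log2 fold change of icKO over control for the tested genes of each list, 1 point per gene, with black lines at the list medians and a dashed line at 0. The orange points, Npy2r at 0.42 and Pam at 0.39, are the genes with an adjusted p under 0.05.

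Other cells that could supply these peptides were examined through their markers. Sympathetic neurons, a known source of Npy, were represented by 7 genes, among them Dbh, Slc6a2, Hand1, Hand2, Phox2a and Gata3, whose summed level was 0.313 to 0.606 CPM in icKO and 0.51 to 1.03 CPM in control, and none of the 7 passed the count filter. Hand1 had 0 counts in every library and Dbh had 9 counts at most, in control 1. Gata3 made up 0.567 CPM of the highest sum, 1.03 CPM in control 4, with 11 counts there against 0 to 5 elsewhere. Of 10 spinal cord genes 3 were tested and none was called, with sums of 10.7 to 12.9 CPM in icKO and 7.88 to 21.6 CPM in control, the highest in control 4. Slc32a1, which marks inhibitory spinal neurons, had 0 or 1 counts per library. Slc6a5, however, had 12 counts in control 4 against 0 to 4 in the other libraries, and Olig1 had 10 against 0 to 3. Slc1a2 made up 17.8 CPM of the sum in control 4, while Gad1 and Pax2 were not highest there. Tac2, from the list of other neuropeptide genes, had 20 counts in control 4 against 0 to 2 elsewhere. The part of spinal tissue in control 4 was not tested. The 6 fibroblast and meningeal genes summed to 757 to 1775 CPM in icKO and 602 to 1288 CPM in control, and the 5 satellite glia genes to 3654 to 4300 CPM in icKO and 3331 to 4499 CPM in control, with none called. The 5 Schwann cell genes summed to 2974 to 3500 CPM in icKO and 2868 to 3481 CPM in control. The 7 macrophage and lymphocyte genes summed to 41.0 to 60.8 CPM in icKO and 32.9 to 59.4 CPM in control, the 4 endothelial genes to 34.9 to 51.4 CPM in icKO and 33.0 to 49.5 CPM in control, and the 6 adipose and muscle genes to 3.41 to 28.9 CPM in icKO and 12.5 to 33.4 CPM in control. All 6 adipose and muscle genes had fitted values below 0, with a median log2 fold change of -1.12 and 1 at an unadjusted p under 0.05, and all 6 fibroblast and meningeal genes had values above 0, with a median of 0.17. None of these 12 was called, and their part in the neuropeptide values was not tested. Of 7 genes of peptidergic nociceptors, the cells known to make substance P, 1 rose, 2 fell and 4 were not called. Of all tested genes, 0.475% were called higher and 0.377% lower in icKO. Calcb, which encodes a form of CGRP, rose by a log2 fold change of 0.52 (SE 0.07), while Gfra3, which encodes a co-receptor for artemin, had a value of -0.66 (SE 0.12). The 7 genes had sums of 2361 to 3103 CPM in icKO and 2585 to 3482 CPM in control.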

How the data were processed

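The authors deposited a table of raw counts for each library. The submitters' processing notes list the mm10 build, featureCounts 1.5.0-p1, STAR 2.5.2a and bcl2fastq 2.20.0.422. Not given in the sources used here are the annotation release, the strand setting and the treatment of multi-mapping reads. All 55536 identifiers were matched to GENCODE M21 on the same build, which supplied symbols, positions and exon lengths.

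Genes passing filterByExpr (minimum count 10, minimum total 15) numbered 17258. Counts were scaled by TMM, given as CPM over the scaled library totals, and compared with edgeR 4.0.16's quasi-likelihood test in R 4.3.3. Log2 fold changes are icKO over control, the standard error is the size of the fold change over the square root of F, and p-values were adjusted by Benjamini-Hochberg over all tested genes at a threshold of 0.05. DESeq2 1.42.0, other scalings and filters, a robust fit, a replicate block, a Y-linked term and leaving out each library were alternatives. The test was checked on simulated data. Library pairs of 1 group differed beyond counting noise (chi-square over its degrees of freedom 6.03 to 23.2), and each library counted once.

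Members and lists were chosen with earlier results of these data known. Named genes were the members, Prdm12, called genes and the 4 smallest p-values of each pathway list, and the 2 most similar genes for members at 10 CPM or more. Ecel1, Crh, Cckbr, Atf3 and Sprr1a were named after their values were seen, as was leaving out icKO 2 and control 1 together. Motifs were chosen after the counts were seen. Some genes that this rule or a list holds are not reported here.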

Additional observations from a re-analysis of the deposited data

Results flagged for a closer look

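Among 52 groups of values from 27 genes, 6 had 1 library far from the others of its group. Chance would give about 1 in 20 if the groups were independent. They are not, since all genes were measured in the same libraries, and every flagged value but that of Nms lay in icKO 2 or control 1. The number found therefore cannot be judged against that rate. Gal was at 52.4 CPM in control 1, against 19.4 to 24.9 CPM in the other control libraries. Npy was at 5.5 CPM in icKO 2, against 0.244 to 0.942 CPM in the other icKO libraries, and at 4.36 CPM in control 1, against 0.204 to 0.773 CPM in the other control libraries. Nts was at 41.6 CPM in control 1, against 12.6 to 15.9 CPM in the other control libraries. Scg3 was at 932 CPM in icKO 2, against 841 to 867 CPM in the other icKO libraries. Nms was at 0.309 CPM in control 4, against 0.49 to 0.513 CPM in the other control libraries, values that rest on 6 and 12 to 14 counts.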

How the results depend on the processing

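Leaving out single libraries gave 78 to 175 called genes in place of 147, with 45 to 85 higher and 33 to 90 lower, and the total moved by over 1.5 times on omitting icKO 1 (78), icKO 3 (89), icKO 4 (94), icKO 5 (95) or control 3 (92), as did the lower genes on omitting control 1 (43). Without a count filter 393 genes were called (172 higher, 221 lower), and DESeq2 called 421 (194 higher, 227 lower). Without icKO 2 and control 1, a choice made after seeing the data, 39 genes were called lower. No members were called under any alternative except without a count filter, which called 2, Tac1 and Cartpt. That filter setting also called 2 other neuropeptide genes, Sst and Nppb, against 0. Called vesicle genes numbered 1 with library size alone, 1 without a count filter, 2 with DESeq2 and 0 to 1 over single libraries left out. Called receptor and processing genes each ranged from 0 to 1 over single libraries left out. Over single libraries left out, log2 fold changes that changed sign ranged from -0.013 to 0.12 for Adcyap1, -0.59 to 0.15 for Gal, -0.026 to 0.077 for Nmb, -1.66 to 1.41 for Npy and -0.34 to 0.23 for Cck. Nmb was at -0.012 without icKO 2 and control 1, and Npy at 0.074 with a Y-linked term. Lengths of the longest transcript kept 6 of the 10 places in the control order, since Nmb changed places with Tac1 and Gal with Adcyap1. Without icKO 2 and control 1, 8 places were kept. The cause of these shifts was not tested.

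Replicate numbers are shared by the titles of both groups. After the group means were removed, correlations across genes of same-numbered libraries were 0.10, -0.18, -0.04 and 0.17 for numbers 1 to 4. The highest value of any icKO and control pair was 0.41, for icKO 2 and control 1. Removing group means itself shifts such correlations, so they cannot decide whether same-numbered libraries shared a litter, day or batch. The titles give only the number. With the replicate block, on 8 libraries, 48 genes were called (28 higher, 20 lower), of which 45 were among the 147. Called receptor genes and called processing genes were each 0 with the block, and Cck was at 0.0064. Depth limits Vip, Grp and Cck, at no more than 14 counts per library.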
